A study of Mus musculus with 24 samples.

Results

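The genes described here are 34 mouse genes of amino acid synthesis, amino acid transport and the ATF4 program. The genes were chosen by name, with earlier results of these data known. They were measured by RNA-Seq in NIH 3T3 cells, an immortalized mouse fibroblast line, and 33 of the 34 had a mean of at least 5 counts over the 24 libraries and were among the 14361 genes tested. The exception was Cbs, which joins homocysteine and serine and had at most 6 counts in a library. There were 8 groups of 3 libraries, from pooled stable lines made in triplicate with a retroviral pBabeNeo vector and selected with G418. EV cells held the empty vector. The others expressed TAZ4SA or YAP5SA (TAZ and YAP in which serines phosphorylated by the LATS kinases were replaced by alanine), TAZ-CAMTA1 (the N terminus of TAZ joined to the C terminus of CAMTA1), YAP-TFE3 (the N terminus of YAP joined to the C terminus of TFE3), or full-length TFE3 or CAMTA1. EVsub, a second empty vector group, was sub-confluent by its titles. CAMTA1 cells were taken as sub-confluent from the methods, and the other groups as confluent for 48 h when collected. The methods describe lines with CAMTA1 as sub-confluent without saying whether TAZ-CAMTA1 is among them, so TAZ-CAMTA1 is also set beside EVsub. P-values measure the spread between the triplicate lines.

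When amino acids run short or the endoplasmic reticulum is stressed, kinases phosphorylate the initiation factor eIF2, general translation falls and the mRNA of the transcription factor ATF4 is translated more. ATF4, with partners of the C/EBP family, binds composite sites near genes that make, import and charge amino acids, and it shares targets with CHOP, the product of Ddit3. Serine, glycine and the one-carbon units taken from them feed nucleotide and methyl group synthesis, and cystine import and transsulfuration supply cysteine for glutathione. ATF4 is regulated largely in translation, which RNA-Seq does not measure.

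The composite site was searched for as the letters TGATGNAA, on both strands, in RefSeq promoter windows of GRCm38.p6, from 250 bases before to 50 bases after each start. Windows were found for 28 of the 34 genes, and there was none for Eif4ebp1, Aldh1l2, Cth, Slc7a3, Slc7a5 and Slc1a5. The letters occurred in windows of 8 of the 28 (28.6%) and of 4.51% of all 27025 genes with a window (3.97% of 32851 windows). They are shown because regulators, enzymes and carriers described below hold one. Each line gives 30 bases, 5′ to 3′, on the strand that reads TGATGNAA, and the capitals mark the match.
Trib3, chr2:152344028-152344057, + strand: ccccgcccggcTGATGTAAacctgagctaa
Chac1, chr2:119351038-119351067, - strand: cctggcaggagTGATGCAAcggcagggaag
Nupr1, chr7:126625562-126625591, + strand: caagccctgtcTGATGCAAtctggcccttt
Asns, chr6:7693214-7693243, - strand: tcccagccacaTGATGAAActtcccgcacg
Pycr1, chr11:120643833-120643862, - strand: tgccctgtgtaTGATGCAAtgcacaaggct
Got1, chr19:43524689-43524718, + strand: ggaggcttgtaTGATGCAAccaatgcaatg
Slc7a11, chr3:50443642-50443671, + strand: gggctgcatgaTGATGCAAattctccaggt
Slc7a11, chr3:50443661-50443690, - strand: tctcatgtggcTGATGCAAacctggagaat
Slc1a4, chr11:20332699-20332728, + strand: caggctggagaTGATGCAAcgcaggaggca
The Asns match began 23 bases upstream of its start, that of Chac1 193 bases upstream, and those of Slc7a11 47 and 66 bases upstream on opposite strands. The Trib3 match began 15 bases downstream of the RefSeq start. The E-box letters CACGTG, of the kind TFE3 binds, occurred in windows of 4 members (Nupr1, Gcat, Aldh18a1 and Cbs; 14.3%, beside 8.09% of all genes). The TEAD letters GGAATG occurred in 1 member, Slc6a9 (3.57%, beside 16.6% of all genes). A match is a run of letters, and no binding was measured here. Against EV, the 8 members with TGATGNAA had median log2 fold changes of 1.199 in TAZ4SA and 1.13 in YAP5SA. The 19 measured members with a window and no match had 1.073 and 1.245. In TAZ-CAMTA1 the medians were 0.581 with a match and 0.382 without, in YAP-TFE3 0.409 and 0.043, and in EVsub 0.704 and 0.455. The list includes ATF4 program genes by choice, and a link between the letters and the members' changes was not tested.

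Library totals lay between 16471181 and 30132586 counts, with a median of 22298975. Values below are CPM, counts scaled to a common library size after TMM. In bulk RNA, a change in level per cell and a change in the share of cells that express a gene cannot be told apart. Fibroblast genes were abundant, 7 markers summing to between 18800 and 52100 CPM, while 3 leukocyte markers summed to at most 0.382 CPM. Of 3 epithelial markers, Epcam had no count, and the sum was 0.133 to 0.338 CPM in EV, 0.843 to 1.49 in TAZ4SA and 7.51 to 9.06 in YAP5SA. The sum of 3 endothelial markers was 0.127 to 0.221 CPM in EV, 1.07 to 1.65 in YAP-TFE3, 1.62 to 2.61 in TAZ-CAMTA1, 7.03 to 7.79 in YAP5SA and at least 8.31 in TAZ4SA. The part of cells with these markers in the members' results was not tested. Camta1 was higher in CAMTA1 than in EVsub (9.96 against 4.76 CPM, adjusted p = 0.0019). Yap1 was lower in YAP5SA than in EV (log2 fold change -0.86), Tfe3 was not called higher in TFE3, and Wwtr1, the gene of TAZ, was higher by 0.28 on the log2 scale in TAZ4SA, so the mouse genes' counts do not mark those lines. In several groups 1 library was the highest for most members. EV replicate 2 was the highest of its group for 25 of 33 members, EVsub replicate 2 for 29, TAZ4SA replicate 3 for 24, TAZ-CAMTA1 replicate 2 for 25, TFE3 replicate 1 for 21 and YAP-TFE3 replicate 1 for 20. The median log2 difference of the members to the other 2 libraries was 0.32, 0.43, 0.43, 0.17, 0.083 and 0.19 in that order. The summed level of 10 proliferation genes was also highest in EV replicate 2, EVsub replicate 2 and TAZ4SA replicate 3, at 781, 2370.0 and 866 CPM, but in TAZ-CAMTA1 it was highest in replicate 3 (1220.0 CPM, beside 1170.0 in replicate 2). The part of proliferation in these values was not tested.

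Most members were higher with TAZ4SA or YAP5SA than in EV, 17 were higher in TAZ-CAMTA1 and 18 in EVsub, and few were called in YAP-TFE3, TFE3 or CAMTA1. A gene was called when the adjusted p of edgeR's quasi-likelihood test was under 0.05. In TAZ4SA, 25 of 33 members were called higher and 1 lower, where 31.1% of all genes tested were called higher and 26.4% lower. In YAP5SA, 25 members were higher and 4 lower, where 36.3% of all genes were higher and 34.9% lower. The median log2 fold changes of the members were 1.12 and 1.17, beside 0.049 and 0.014 over all genes.

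The fusion proteins had fewer calls. In TAZ-CAMTA1, 17 members were called higher and 2 lower, beside 12.5% and 8.98% of all genes, with a median log2 fold change of 0.55. In YAP-TFE3, 6 were higher and 3 lower, beside 10.6% and 4.74% of all genes, and the median was 0.19. The YAP-TFE3 count turned on its replicate 1, without which 4 members were called in place of 9. Without EV replicate 2, the members called were 26 for TAZ4SA, 30 for YAP5SA, 19 for TAZ-CAMTA1 and 12 for YAP-TFE3. In the same order they were 23, 26, 14 and 7 without EV replicate 1, and 25, 26, 14 and 8 without EV replicate 3. Without TAZ-CAMTA1 replicate 2, 14 members were called for TAZ-CAMTA1 in place of 19. These comparisons share the EV libraries.

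How libraries are scaled bears on TAZ4SA and YAP5SA. With library totals alone in place of TMM, the median log2 fold change of all genes was -0.13 in TAZ4SA and -0.36 in YAP5SA, and 41.9% and 34.5% of their called genes were higher, in place of 54.1% and 51.0%. The members then split into 23 higher and 1 lower in TAZ4SA and 20 higher and 5 lower in YAP5SA. The member calls lost in this way were Mthfd2, Aldh1l2, Gpt2, Shmt1 and Pycr1 in YAP5SA, and Phgdh and Atf4 in TAZ4SA.

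**Figure D1:**
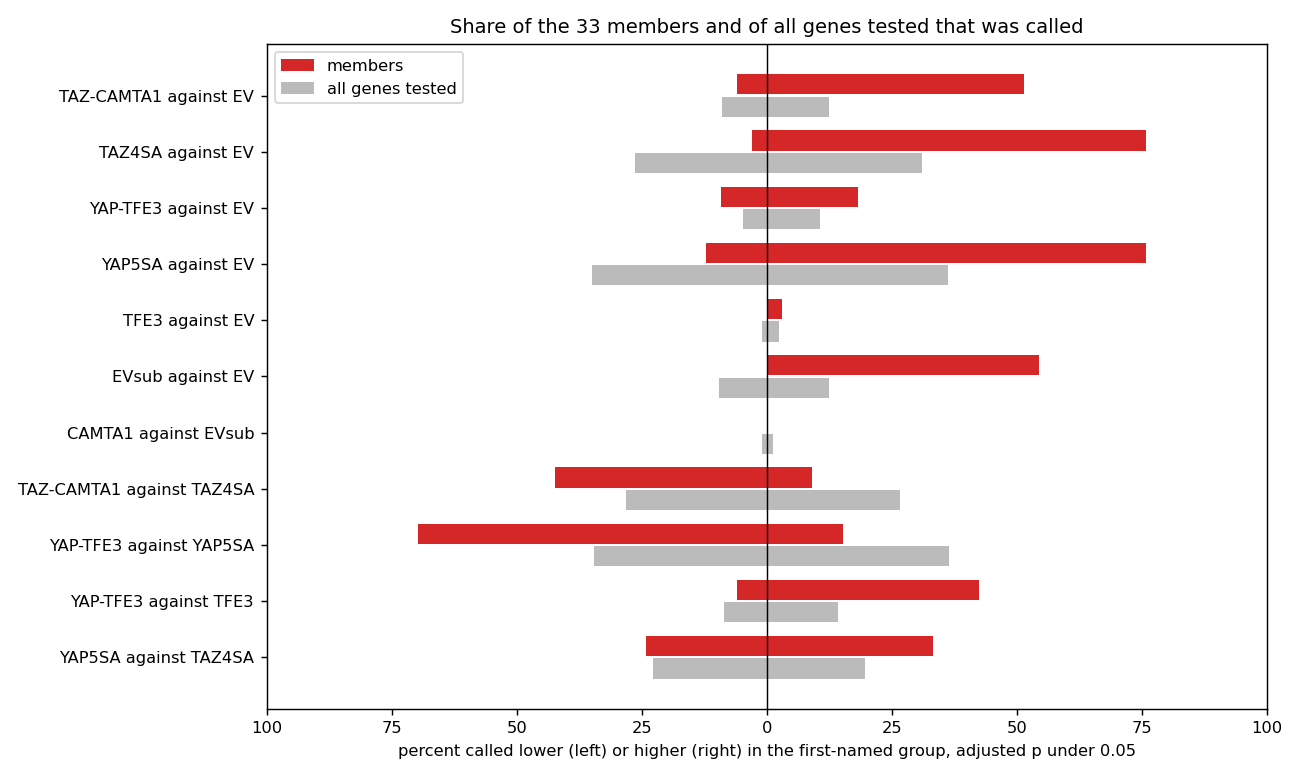
Percent of the 33 measured members (red) and of all 14361 genes tested (grey) called higher (right) or lower (left) in the first-named group of each comparison, at an adjusted p under 0.05. The red bars reach 75.8% to the right for TAZ4SA and for YAP5SA against EV, and 69.7% to the left for YAP-TFE3 against YAP5SA.

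**Figure D2:**
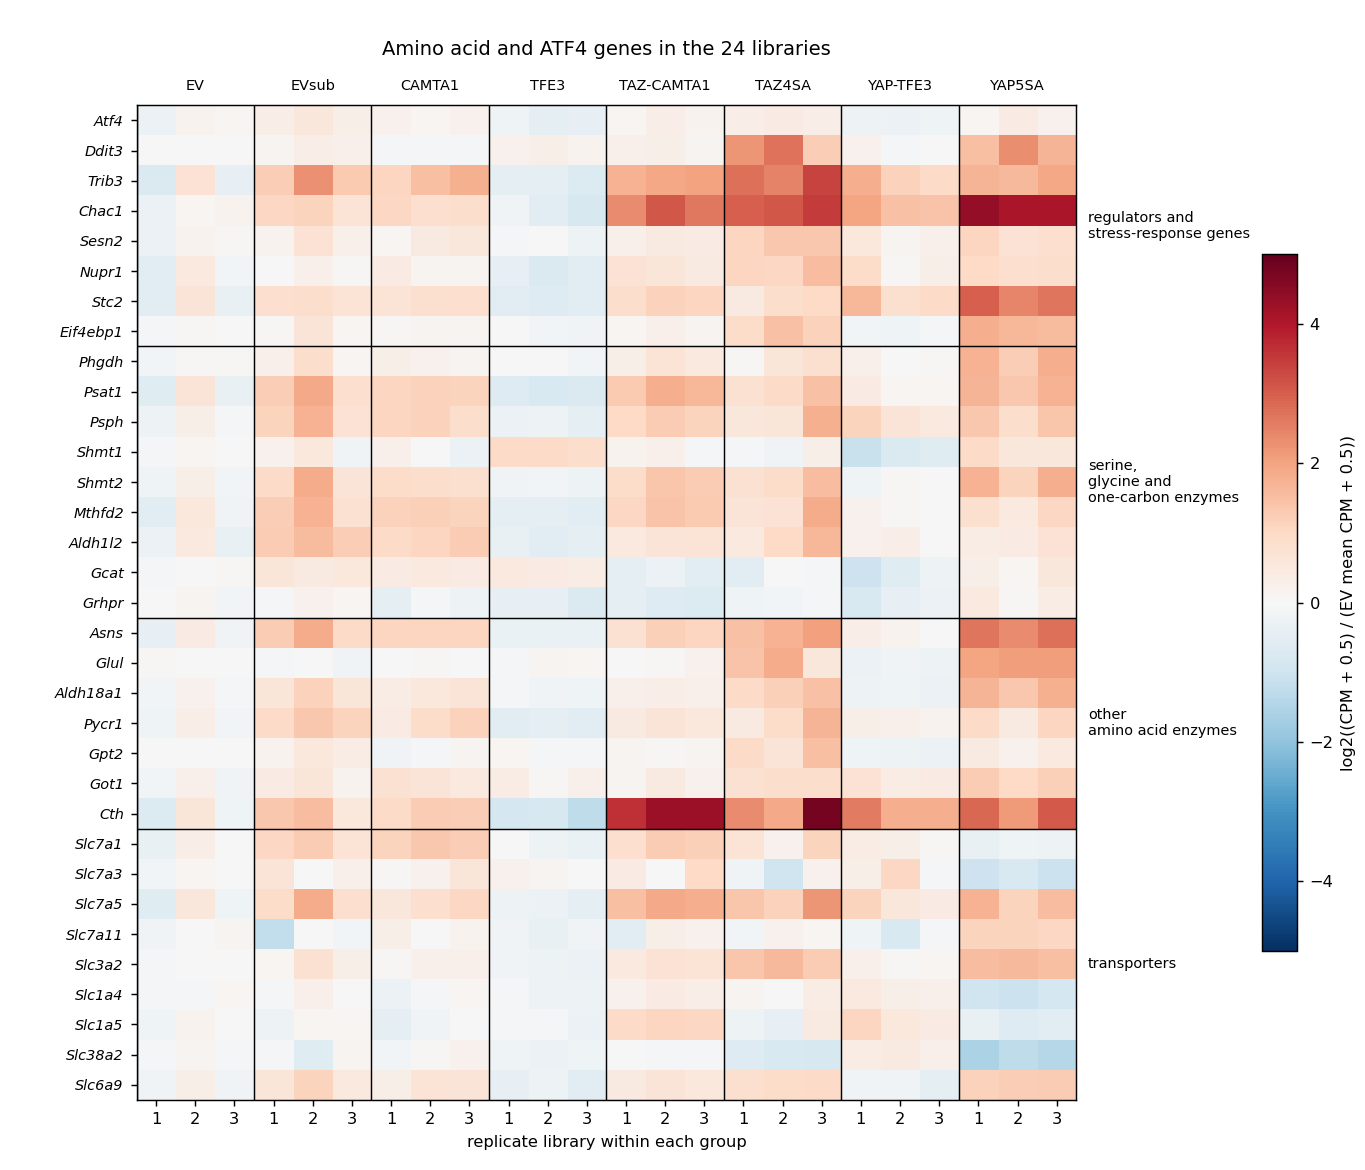
Each cell is log2 of a library's CPM over the mean CPM of EV, with 0.5 added to both, for the 33 members (rows, by role) in the 24 libraries (columns, by group). EV replicate 2, EVsub replicate 2 and TAZ4SA replicate 3 are higher than their partners for most rows.

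Of the 8 regulators and stress-response genes, 8 were called higher in TAZ4SA, 7 in YAP5SA, 4 in TAZ-CAMTA1, 3 in YAP-TFE3 and 4 in EVsub, each against EV, and none was lower. Of all genes, 31.1% were higher in TAZ4SA, 36.3% in YAP5SA, 12.5% in TAZ-CAMTA1, 10.6% in YAP-TFE3 and 12.5% in EVsub. Those lower were 26.4%, 34.9%, 8.98%, 4.74% and 9.59% in that order. The Atf4 mRNA moved little, although it was the most abundant member per kilobase of exon in EV (182 CPM per kb). It was at 351, 483 and 453 CPM in EV and 545, 567 and 535 in TAZ4SA, which lay above EV without overlap. It was at 462, 569.8 and 503 CPM in YAP5SA, 459, 538 and 482 in TAZ-CAMTA1 and 361, 350.4 and 372 in YAP-TFE3, which all overlapped EV. The log2 fold change was 0.36 ± 0.12 (SE) in TAZ4SA (adjusted p = 0.0127) and 0.25 ± 0.12 in YAP5SA (adjusted p = 0.0574). Scaled by library totals, the TAZ4SA value was 0.17 (adjusted p = 0.183) and the YAP5SA value turned to -0.12 (adjusted p = 0.314).

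Ddit3, which encodes the stress transcription factor CHOP, was called in TAZ4SA and YAP5SA and in neither fusion protein. It stood at 93.8, 89.7 and 92.3 CPM in EV, 421, 598 and 217 in TAZ4SA and 259.8, 458 and 301 in YAP5SA. Every TAZ4SA and YAP5SA library was above every EV library, and the lowest TAZ4SA value came from replicate 3. In TAZ-CAMTA1 the values were 109, 113 and 102 CPM, and in YAP-TFE3 106, 87.2 and 91.3. The log2 fold change was 2.16 ± 0.23 in TAZ4SA (adjusted p = 9.26e-08) and 1.89 ± 0.23 in YAP5SA (adjusted p = 2.12e-07), beside 0.24 ± 0.22 in TAZ-CAMTA1 (adjusted p = 0.495) and 0.043 ± 0.22 in YAP-TFE3 (adjusted p = 0.934). Ddit3 exons overlap those of the methionyl-tRNA synthetase gene Mars1 and of Gm4189 on the other strand. They also overlap a second model named Ddit3 on the same strand. The sources used here do not say whether strand was used in counting. Mars1 was higher in TAZ4SA (log2 fold change 0.97) and YAP5SA (1.55) too.

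Trib3 encodes a pseudokinase that ATF4 and CHOP induce and that restrains them. It had 7.14, 20.2 and 8.94 CPM in EV, 85.3, 69.3 and 131 in TAZ4SA, 40.3, 38.3 and 48.2 in YAP5SA, 41.5, 47.1 and 50.7 in TAZ-CAMTA1 and 44.0, 27.5 and 24.03 in YAP-TFE3. None of these 4 groups overlapped EV. The log2 fold changes were 2.98 ± 0.35 (adjusted p = 2.88e-07), 1.81 ± 0.34 (adjusted p = 5.91e-05), 1.94 ± 0.34 (adjusted p = 0.000213) and 1.40 ± 0.34 (adjusted p = 0.00547) in the same order. Without EV replicate 2 they were larger, at 3.57, 2.39, 2.53 and 1.98, and the YAP-TFE3 call was lost without YAP-TFE3 replicate 1 (adjusted p = 0.0689).

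Chac1 encodes an enzyme that degrades glutathione, and is a target of ATF4. It was at 9.37, 12.4 and 13.2 CPM in EV, 254, 204 and 208 in YAP5SA, 97.1, 104 and 136 in TAZ4SA, 61.3, 104 and 75.4 in TAZ-CAMTA1 and 47.2, 32.8 and 31.9 in YAP-TFE3. All 4 groups lay above EV, and YAP5SA above the libraries of every other group. Its log2 fold change was the largest of the members in YAP5SA, 4.25 ± 0.23 (adjusted p = 1.28e-12), and was 3.27 ± 0.22 in TAZ4SA (adjusted p = 1.07e-10), 2.79 ± 0.21 in TAZ-CAMTA1 (adjusted p = 7.99e-09) and 1.68 ± 0.21 in YAP-TFE3 (adjusted p = 6.16e-06).

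Stc2 encodes stanniocalcin 2, a secreted glycoprotein. It was at 3.88, 9.45 and 4.51 CPM in EV and 51.1, 34.3 and 40.5 in YAP5SA, with no overlap (log2 fold change 2.82 ± 0.26, adjusted p = 3.84e-09). In YAP-TFE3 it was at 20.0, 10.8 and 12.02 CPM, also above EV (1.26 ± 0.26, adjusted p = 0.00135), and in TAZ4SA at 8.29, 11.2 and 12.4, overlapping EV (0.85 ± 0.26, adjusted p = 0.00831, lost under 3 alternatives). Eif4ebp1 encodes the translation inhibitor 4E-BP1, and rose by 1.201 ± 0.14 on the log2 scale in TAZ4SA (adjusted p = 2.05e-07) and 1.68 ± 0.14 in YAP5SA (adjusted p = 5.87e-10). Sesn2, a leucine-binding inhibitor of mTORC1 signalling, rose by 1.27 ± 0.16 and 0.89 ± 0.16, and neither gene was called in a fusion protein. Nupr1, a small stress-induced nuclear protein, rose by 1.25 ± 0.21 in TAZ4SA and 0.93 ± 0.21 in YAP5SA. Its call in TAZ-CAMTA1 (0.61 ± 0.21, adjusted p = 0.0429) was lost under 10 alternatives, with an adjusted p of up to 0.247.

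**Figure D3:**
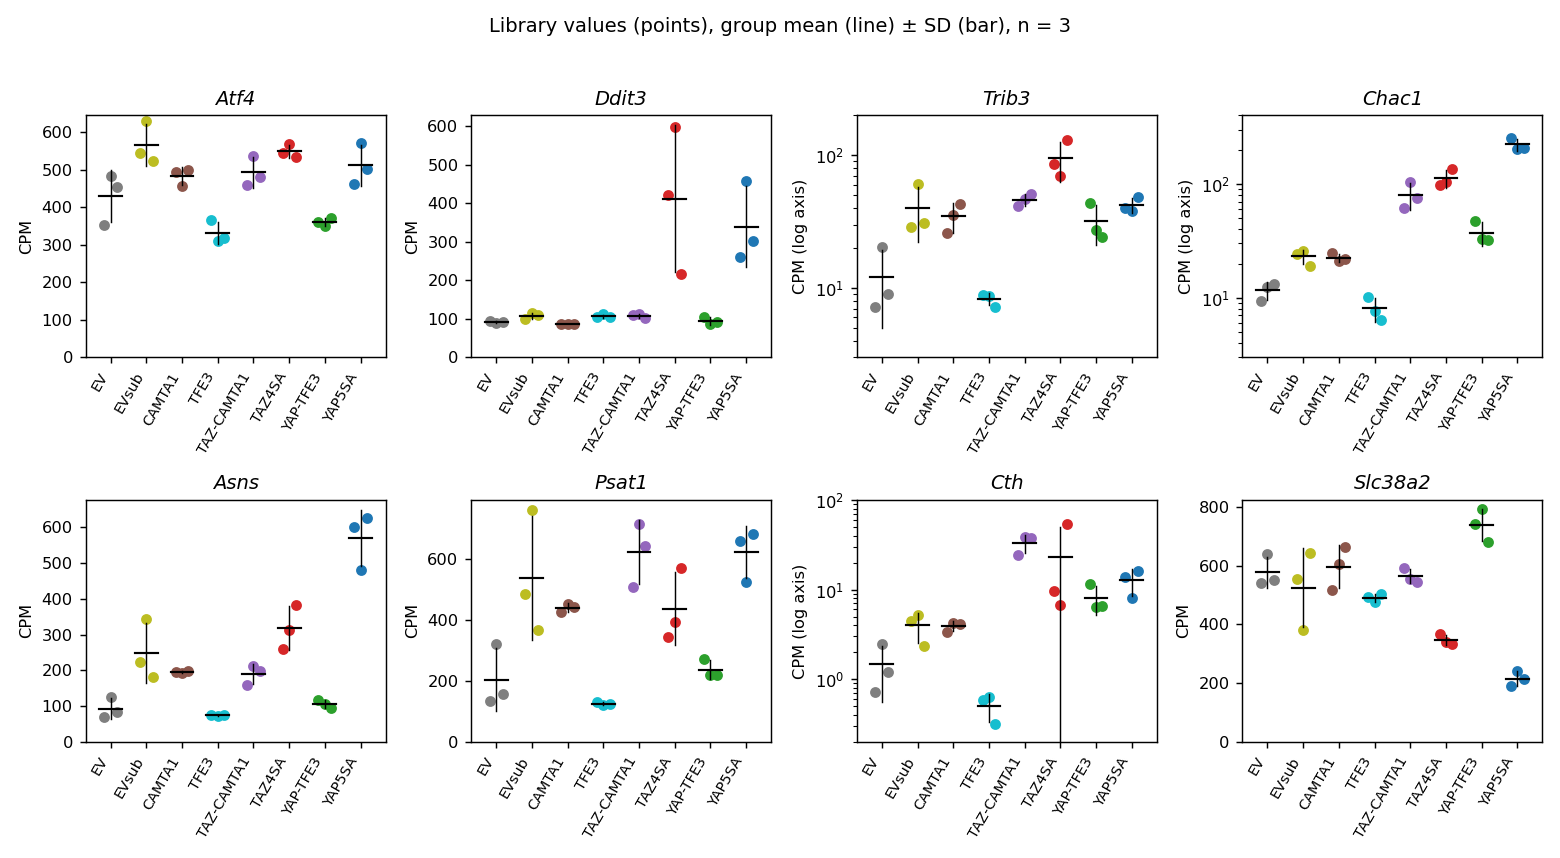
CPM of 8 members in each library (points), with the group mean (line) and SD (bar, n = 3). Trib3, Chac1 and Cth have log axes, and the lower end of the Cth bar in TAZ4SA (23.3 ± 26.1 CPM, mean ± SD) runs off its axis. Ddit3 is at 216.7 CPM or more in every TAZ4SA and YAP5SA library and at 115.2 CPM or less in every other, while Atf4 spans 311 to 628 CPM over all libraries.

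Of the 9 serine, glycine and one-carbon enzymes, 6 were higher in TAZ4SA and 7 in YAP5SA with none lower, 5 were higher and 2 lower in TAZ-CAMTA1, and none was higher and 3 were lower in YAP-TFE3. The shares of all genes higher and lower were 31.1% and 26.4% in TAZ4SA and 36.3% and 34.9% in YAP5SA. They were 12.5% and 8.98% in TAZ-CAMTA1 and 10.6% and 4.74% in YAP-TFE3. Phgdh takes the first step from glycolysis to serine. It was at 247, 278 and 282 CPM in EV, 905, 631 and 939.9 in YAP5SA, 281, 408 and 467 in TAZ4SA, 326, 431 and 376 in TAZ-CAMTA1 and 319, 271 and 279.9 in YAP-TFE3. YAP5SA lay above the other groups named, and TAZ4SA overlapped EV. Its log2 fold change was 1.62 ± 0.19 in YAP5SA (adjusted p = 1.35e-07) and 0.52 ± 0.19 in TAZ4SA (adjusted p = 0.0215), the latter lost under 5 alternatives.

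Psat1, the transaminase of the next step, was at 133, 322 and 158 CPM in EV, 345, 395 and 572 in TAZ4SA, 661, 525 and 682 in YAP5SA, 510.1, 716 and 645 in TAZ-CAMTA1 and 273, 219.5 and 219.8 in YAP-TFE3. EV replicate 2 was higher than every YAP-TFE3 library and lower than every library of the other 3 groups. Its log2 fold change was 1.10 ± 0.27 in TAZ4SA (adjusted p = 0.0013), 1.61 ± 0.27 in YAP5SA (adjusted p = 1.57e-05), 1.61 ± 0.27 in TAZ-CAMTA1 (adjusted p = 0.000139) and 0.21 ± 0.26 in YAP-TFE3 (adjusted p = 0.664). Psph, which completes serine synthesis, rose by 1.13 ± 0.28, 1.27 ± 0.28 and 1.15 ± 0.28 on the log2 scale in TAZ4SA, YAP5SA and TAZ-CAMTA1. Psph, Shmt1, Shmt2, Aldh1l2, Glul and Slc6a9 each share exonic bases with another gene, and Gcat, like Ddit3, with a second model of the same name.

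Shmt2, Mthfd2 and Aldh1l2 rose in the same 3 groups. Shmt2, which splits serine to glycine in mitochondria, had log2 fold changes of 1.12 ± 0.25 in TAZ4SA, 1.59 ± 0.25 in YAP5SA and 1.21 ± 0.25 in TAZ-CAMTA1. Mthfd2, the mitochondrial methylene-tetrahydrofolate dehydrogenase, had 1.22 ± 0.28, 0.80 ± 0.28 and 1.28 ± 0.28, the YAP5SA call being lost under 4 alternatives (adjusted p up to 0.21). In TAZ4SA, Mthfd2 was at 62.8, 66.3 and 145 CPM against 26.6, 57.0 and 35.0 in EV, replicate 3 being far above its partners. Aldh1l2, which oxidises formyl-tetrahydrofolate in mitochondria, had 1.14 ± 0.22 in TAZ4SA. Its calls in TAZ-CAMTA1 (0.62 ± 0.22) and YAP5SA (0.51 ± 0.22) were each lost under 8 alternatives.

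Shmt1, the cytosolic counterpart of Shmt2, had another pattern. It was at 26.7, 29.6 and 27.3 CPM in EV, 12.5, 16.5 and 17.9 in YAP-TFE3, 54.0, 54.5 and 52.2 in TFE3 and 55.2, 41.0 and 41.2 in YAP5SA. YAP-TFE3 lay below EV without overlap, and TFE3 and YAP5SA above it. The log2 fold changes were -0.83 ± 0.18 (adjusted p = 0.00232), 0.94 ± 0.18 (adjusted p = 0.00327) and 0.72 ± 0.18 (adjusted p = 0.00104) in that order, the last being 0.35 (adjusted p = 0.123) with library totals alone.

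Gcat, which yields glycine in threonine breakdown, and Grhpr, which reduces glyoxylate and hydroxypyruvate, were lower in both fusion proteins. Gcat was at 32.04, 34.2 and 35.6 CPM in EV, 24.5, 27.6 and 23.1 in TAZ-CAMTA1 and 16.2, 22.2 and 28.5 in YAP-TFE3. Grhpr was at 14.2, 15.7 and 13.0 CPM in EV, 10.2, 8.90 and 8.58 in TAZ-CAMTA1 and 8.27, 10.6 and 11.5 in YAP-TFE3. Neither fusion protein overlapped EV for either gene. In full-length TFE3, Grhpr was also below every EV library, at 10.8, 10.6 and 8.51 CPM, without being called. Grhpr was not called between YAP-TFE3 and TFE3 either. Gcat in TFE3 lay above EV, at 47.3, 45.8 and 43.5 CPM. Gcat had log2 fold changes of -0.44 ± 0.16 in TAZ-CAMTA1 (adjusted p = 0.0494) and -0.60 ± 0.16 in YAP-TFE3 (adjusted p = 0.0101), and Grhpr -0.63 ± 0.15 (adjusted p = 0.00412) and -0.50 ± 0.15 (adjusted p = 0.0261). The Gcat call in TAZ-CAMTA1 was lost under 7 alternatives, among them each library left out in turn (adjusted p up to 0.172), and in YAP-TFE3 the calls of both genes were lost without YAP-TFE3 replicate 1 (adjusted p up to 0.153 over the alternatives).

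Of the 7 other amino acid enzymes, all were higher in TAZ4SA and in YAP5SA, 2 (Asns and Cth) in TAZ-CAMTA1 and 2 (Cth and Got1) in YAP-TFE3. Beside these stand 31.1%, 36.3%, 12.5% and 10.6% of all genes called higher, in the same order. Asns makes asparagine and is a well-known ATF4 target. It was at 70.6, 125 and 83.3 CPM in EV, 601, 481 and 626 in YAP5SA, 259, 313 and 383 in TAZ4SA, 158, 213 and 197 in TAZ-CAMTA1 and 118, 106 and 94.3 in YAP-TFE3. Of these, YAP-TFE3 alone overlapped EV. On the log2 scale it rose by 2.62 ± 0.22 in YAP5SA (adjusted p = 5.96e-10), 1.78 ± 0.21 in TAZ4SA (adjusted p = 3.33e-07), 1.03 ± 0.21 in TAZ-CAMTA1 (adjusted p = 0.000888), beside 0.19 ± 0.20 in YAP-TFE3 (adjusted p = 0.605).

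Cth, cystathionine gamma-lyase, makes cysteine in transsulfuration. It had few counts in EV, 17, 52 and 27, or 0.718, 2.48 and 1.195 CPM. It stood at 24.5, 38.1 and 37.4 CPM in TAZ-CAMTA1, 9.72, 6.75 and 53.3 in TAZ4SA, 13.9, 8.10 and 16.2 in YAP5SA and 11.4, 6.46 and 6.50 in YAP-TFE3. All these values were above EV, and TAZ4SA replicate 3 was far above its partners. The log2 fold change was the largest of the members in TAZ-CAMTA1 (4.52 ± 0.61, adjusted p = 1.17e-05), TAZ4SA (4.02 ± 0.61, adjusted p = 8.93e-06) and YAP-TFE3 (2.48 ± 0.61, adjusted p = 0.00647), and was 3.13 ± 0.61 in YAP5SA (adjusted p = 9.34e-05). Without TAZ4SA replicate 3 the TAZ4SA value was 2.52, and without EV replicate 2 the 4 values were 5.12, 4.62, 3.08 and 3.73.

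Glul, glutamine synthetase, was called in TAZ4SA and YAP5SA and in neither fusion protein. It was at 16.6, 15.6 and 15.5 CPM in EV, 63.4, 69.8 and 69.6 in YAP5SA, 43.5, 59.0 and 24.1 in TAZ4SA, 15.5, 16.4 and 18.7 in TAZ-CAMTA1 and 12.7, 14.0 and 13.1 in YAP-TFE3. It rose by 2.09 ± 0.19 on the log2 scale in YAP5SA (adjusted p = 2.85e-09) and 1.40 ± 0.19 in TAZ4SA (adjusted p = 1.96e-06), where replicate 3 was the lowest, as for Ddit3. The proline enzymes Aldh18a1 and Pycr1 rose by 1.22 ± 0.15 and 1.15 ± 0.24 in TAZ4SA and 1.62 ± 0.15 and 0.87 ± 0.24 in YAP5SA. The transaminases Gpt2 (alanine) and Got1 (aspartate) rose by 1.07 ± 0.15 and 0.85 ± 0.14 in TAZ4SA and 0.39 ± 0.15 and 1.17 ± 0.14 in YAP5SA. The Gpt2 value in YAP5SA was 0.023 with library totals alone (adjusted p = 0.916), and its call was lost under 6 alternatives in all. The Got1 call in YAP-TFE3 (0.51 ± 0.14, adjusted p = 0.0104) was lost without EV replicate 1, EV replicate 3 or YAP-TFE3 replicate 1 (adjusted p up to 0.13).

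Of the 9 transporters, 4 were higher and 1 lower in TAZ4SA, 4 higher and 4 lower in YAP5SA, 6 higher and none lower in TAZ-CAMTA1, and 1 higher and none lower in YAP-TFE3. In YAP5SA these were 44.4% higher and 44.4% lower, beside 36.3% and 34.9% of all genes, and in TAZ4SA 44.4% and 11.1%, beside 31.1% and 26.4%. In TAZ-CAMTA1 66.7% were higher, beside 12.5% of all genes, and in YAP-TFE3 11.1%, near the 10.6% of all genes. Of the TAZ-CAMTA1 calls, that of Slc1a4 was lost under 11 alternatives, among them DESeq2, the replicate block and library totals (adjusted p up to 0.175). Slc7a5 (LAT1) and its heavy chain Slc3a2 form a carrier of leucine and other large neutral amino acids, and both were higher in 3 groups. Slc7a5 was at 61.2, 138 and 80.3 CPM in EV, 264, 351 and 333 in TAZ-CAMTA1, 243, 209 and 434 in TAZ4SA and 309.7, 204 and 269.7 in YAP5SA. Its log2 fold changes were 1.76 ± 0.30 (adjusted p = 0.000193), 1.67 ± 0.30 (adjusted p = 7.53e-05) and 1.49 ± 0.30 (adjusted p = 0.000146) in that order, and those of Slc3a2 were 0.65 ± 0.13, 1.44 ± 0.13 and 1.56 ± 0.13.

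Slc7a11 encodes the cystine and glutamate exchanger. It was at 32.1, 36.7 and 39.6 CPM in EV, 77.7, 78.5 and 75.1 in YAP5SA, 32.5, 41.5 and 39.1 in TAZ4SA, 24.2, 44.2 and 41.9 in TAZ-CAMTA1 and 30.7, 20.9 and 33.7 in YAP-TFE3. YAP5SA lay apart from all of these (log2 fold change against EV 1.09 ± 0.24, adjusted p = 0.000289), and it was above TAZ4SA in the direct test (1.03 ± 0.24, adjusted p = 0.0015). Slc6a9, the glycine carrier, rose by 0.91 ± 0.16 in TAZ4SA, 1.25 ± 0.16 in YAP5SA and 0.55 ± 0.16 in TAZ-CAMTA1 on the log2 scale, the last call being lost without EV replicate 1, EV replicate 3 or TAZ-CAMTA1 replicate 2 (adjusted p up to 0.0761).

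The 4 transporters lower in YAP5SA were Slc38a2, Slc1a4, Slc1a5 and Slc7a3. Slc38a2 (SNAT2) was at 541, 639 and 553 CPM in EV, 190.4, 240.1 and 215 in YAP5SA and 366, 341 and 332 in TAZ4SA, and neither group overlapped EV. The log2 fold change was -1.42 ± 0.15 in YAP5SA (adjusted p = 1.5e-08) and -0.74 ± 0.14 in TAZ4SA (adjusted p = 0.000148). YAP-TFE3 stood at 743, 792 and 681 CPM, above EV without passing the test (0.36 ± 0.14, adjusted p = 0.0997). Slc1a4 (ASCT1) was at 93.1, 91.8 and 103 CPM in EV and 47.2, 45.1 and 51.3 in YAP5SA, again apart (-1.003 ± 0.12, adjusted p = 1.83e-07).

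Slc1a5 (ASCT2), a main glutamine carrier of proliferating cells, was higher in the fusion proteins and lower in YAP5SA. It was at 100.6, 129 and 118 CPM in EV, 227, 243 and 238 in TAZ-CAMTA1, 241, 168 and 155 in YAP-TFE3 and 90.1, 74.8 and 78.9 in YAP5SA, with no overlap with EV. Its log2 fold change was 1.03 ± 0.19 (adjusted p = 0.000387), 0.70 ± 0.19 (adjusted p = 0.0127) and -0.51 ± 0.19 (adjusted p = 0.0198) in that order. The YAP-TFE3 call was lost without YAP-TFE3 replicate 1 or EV replicate 1 (adjusted p up to 0.2), and the YAP5SA call without EV replicate 2, YAP5SA replicate 2 or YAP5SA replicate 3 (up to 0.0779).

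Slc7a3 and Slc7a1 carry arginine and other cationic amino acids. Slc7a3 was the least abundant member per kilobase in EV (0.328 CPM per kb), with 26, 29 and 28 counts there and 7, 11 and 5 in YAP5SA, or 1.10, 1.39 and 1.24 and 0.359, 0.540 and 0.317 CPM (log2 fold change -1.58 ± 0.49, adjusted p = 0.00623). Slc7a1 was higher in TAZ-CAMTA1 (1.11 ± 0.19) and TAZ4SA (0.71 ± 0.19), and was at -0.28 ± 0.19 in YAP5SA (adjusted p = 0.198). With library totals alone the YAP5SA value was -0.654 and was called lower (adjusted p = 0.0103). The TAZ4SA call was lost with only these 2 groups in the fit (adjusted p = 0.0674).

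**Figure D4:**
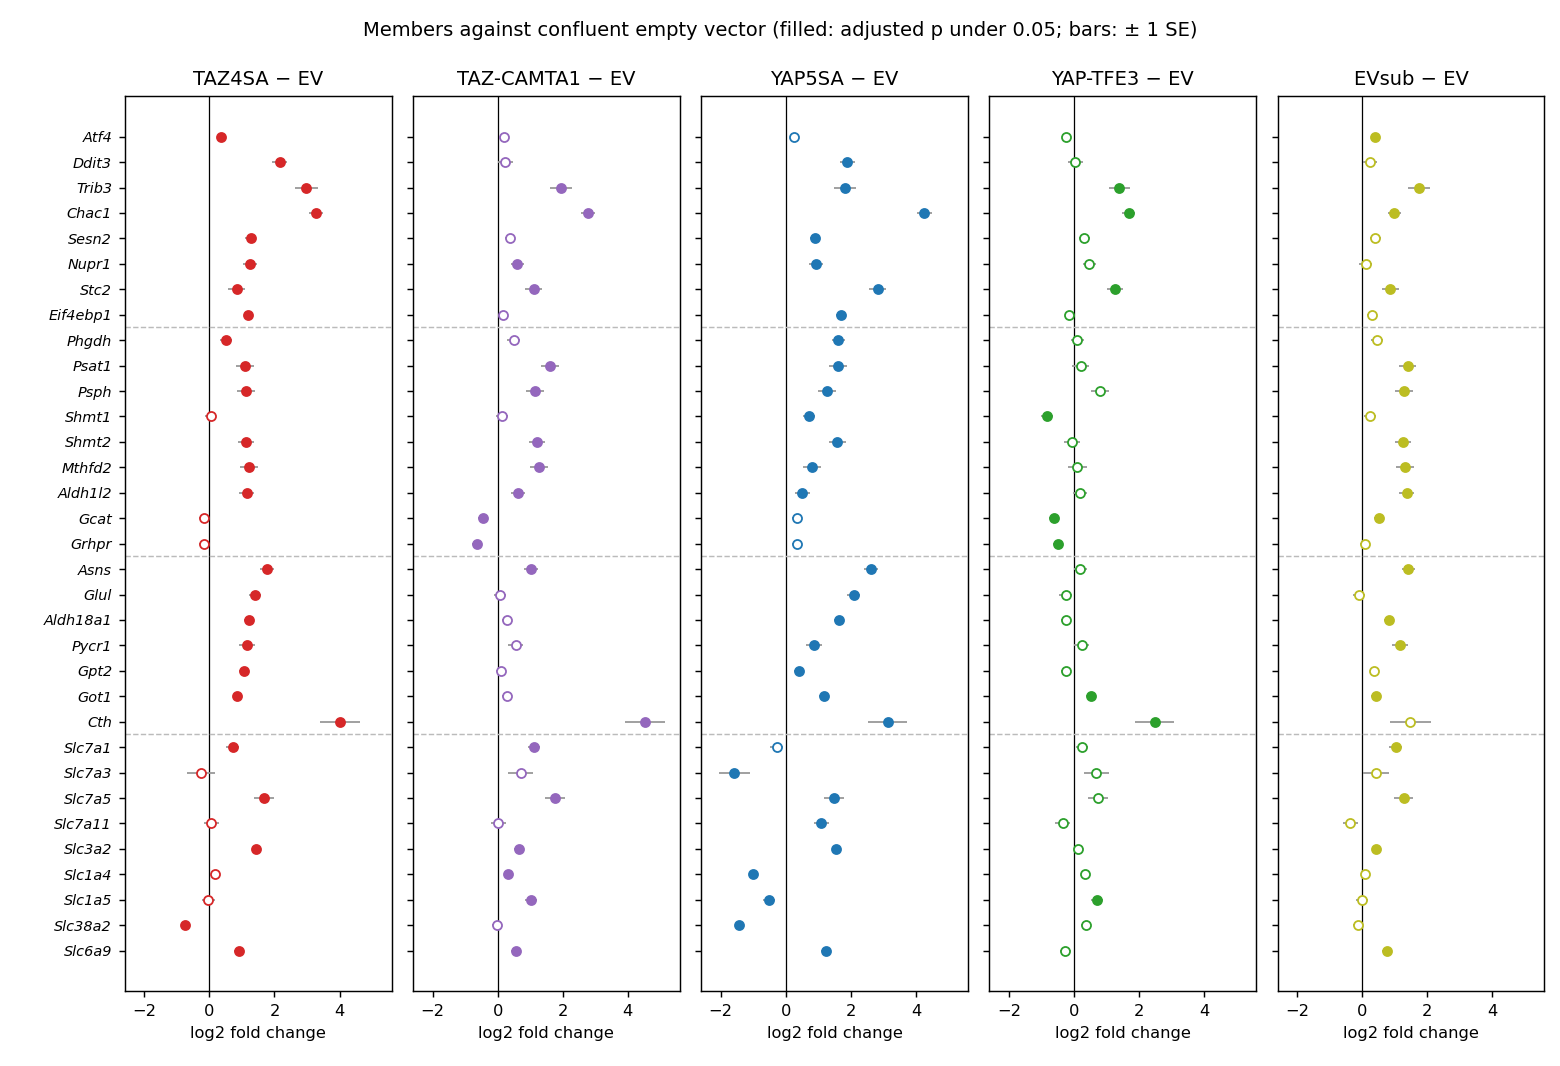
Log2 fold change ± 1 SE of each member against EV in TAZ4SA, TAZ-CAMTA1, YAP5SA, YAP-TFE3 and EVsub, grouped by role, with filled points for an adjusted p under 0.05. In YAP5SA, 4 transporters are filled left of 0 (Slc7a3, Slc38a2, Slc1a4 and Slc1a5) and 25 members are filled right of 0.

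In empty vector cells, the sub-confluent group had 18 members higher than the confluent group and none lower, beside 12.5% and 9.59% of all genes. Trib3 led, with 28.9, 60.8 and 30.9 CPM in EVsub, above all EV libraries (log2 fold change 1.74 ± 0.34, adjusted p = 0.000827). Asns followed with 224, 342 and 181 CPM (1.42 ± 0.21, adjusted p = 6.29e-05) and Psat1 with 487, 762 and 367 CPM (1.40 ± 0.27, adjusted p = 0.000761). EVsub replicate 2 was the highest of its group for all 3 genes, and without it 14 members were called. Without EV replicate 2, Trib3 stood at 2.33.

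Atf4 was also higher in EVsub, at 545, 628 and 522 CPM (0.40 ± 0.12, adjusted p = 0.0177, lost under 3 alternatives), and so was Chac1, at 24.3, 25.8 and 19.2 CPM (0.99 ± 0.21). Ddit3 stood at 100.2, 115 and 110.1 CPM (adjusted p = 0.49), Phgdh at 325, 494 and 287 and Slc7a11 at 15.3, 35.7 and 33.2, none of them called. Proliferation genes moved with density, 10 of 10 being higher in EVsub, at a summed level of 822 to 2370.0 CPM against 405 to 781 in EV. Their part in the members' result was not tested.

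Set against EVsub in place of EV, a comparison added after the data had been seen, TAZ-CAMTA1 had 3 members higher and 4 lower, beside 11.6% and 9.81% of all genes, and a median log2 difference of -0.003. Of the 17 members higher than in EV, 13 were not called against EVsub and Aldh1l2 was lower. The 3 higher were Cth (3.04 ± 0.55, adjusted p = 0.000338), Chac1 (1.80 ± 0.20, adjusted p = 1.3e-06) and Slc1a5 (1.03 ± 0.19, adjusted p = 0.000392). The 4 lower were Gcat (-0.97 ± 0.16, adjusted p = 0.000117), Aldh1l2 (-0.75 ± 0.22, adjusted p = 0.0179), Grhpr (-0.71 ± 0.15, adjusted p = 0.00163) and Aldh18a1 (-0.53 ± 0.15, adjusted p = 0.0123). Asns was at -0.39 ± 0.20 (adjusted p = 0.174) and Psat1 at 0.21 ± 0.26 (adjusted p = 0.608). The 10 proliferation genes summed to 854 to 1220.0 CPM in TAZ-CAMTA1; their part in these values was not tested. If TAZ-CAMTA1 cells were collected sub-confluent, density and protein cannot be told apart in the comparisons with EV and with TAZ4SA.

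Full-length CAMTA1, against EVsub, had no member called by edgeR, beside 1.29% and 0.891% of all genes called higher and lower. At an unadjusted p under 0.05 there were 3 members, and DESeq2 called 0. In CAMTA1, Trib3 was at 25.8, 35.6 and 43.1 CPM, Chac1 at 24.6, 21.3 and 21.7 and Asns at 195, 194 and 197. Atf4 stood at 494, 455 and 498 CPM, Ddit3 at 88.0, 87.2 and 87.5, Psat1 at 427, 454 and 443, Phgdh at 328, 312 and 295 and Slc7a11 at 44.3, 36.2 and 40.9. The median log2 difference of the members was -0.20, and 7 of 33 were above 0.

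Full-length TFE3, against EV, had 1 member called, Shmt1, which was higher, where 2.36% of all genes were higher and 1.02% lower. DESeq2 called 3 members, and a fit of these 2 groups alone 5. The median log2 fold change of the members was -0.24, beside -0.021 over all genes. Asns was at 74.7, 73.2 and 74.3 CPM, Psat1 at 130.1, 121 and 125, Trib3 at 8.81, 8.69 and 7.25 and Chac1 at 10.2, 7.68 and 6.38. Atf4 was at 365, 311 and 319 CPM (-0.37 ± 0.12, adjusted p = 0.0911), Ddit3 at 106, 112 and 105, Phgdh at 272, 272 and 244 and Slc7a11 at 32.2, 27.6 and 31.8.

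Each fusion protein was tested directly against its full-length partner. For TAZ-CAMTA1 against TAZ4SA, density and protein cannot be told apart if the TAZ-CAMTA1 cells were sub-confluent. In TAZ-CAMTA1 against TAZ4SA, 14 members were lower and 3 higher in the fusion protein, beside 28.1% and 26.6% of all genes, with a median of -0.27. The largest falls were Ddit3 (-1.93 ± 0.23, adjusted p = 5.88e-07), Glul (-1.32 ± 0.19, adjusted p = 5.54e-06) and Trib3 (-1.04 ± 0.32, adjusted p = 0.00931). The rises were Slc1a5 (1.06 ± 0.19, adjusted p = 8.05e-05), Slc7a3 (0.97 ± 0.40, adjusted p = 0.0465) and Slc38a2 (0.71 ± 0.14, adjusted p = 0.000288). The Slc7a3 call was lost under 6 alternatives (adjusted p up to 0.283), and the Trib3 call without TAZ4SA replicate 3 (adjusted p = 0.0601). By role, 6 of 8 regulators and 6 of 7 other enzymes were lower, and 1 of 9 serine and one-carbon enzymes. Without TAZ4SA replicate 3, 10 were lower and 8 higher. With library totals alone, 10 were lower and 6 higher, the median of all genes was 0.17, and 62.0% in place of 48.5% of all called genes were higher.

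In YAP-TFE3 against YAP5SA, 23 members were lower and 5 higher in the fusion protein, beside 34.5% and 36.4% of all genes, with a median of -0.75. The falls were led by Chac1 (-2.58 ± 0.21, adjusted p = 5.33e-10), Asns (-2.42 ± 0.21, adjusted p = 2.1e-09) and Glul (-2.35 ± 0.19, adjusted p = 7.47e-10). All 5 rises were transporters. They were Slc7a3 (2.27 ± 0.46, adjusted p = 0.00016), Slc38a2 (1.78 ± 0.15, adjusted p = 8.04e-10), Slc1a4 (1.35 ± 0.12, adjusted p = 2.95e-09), Slc1a5 (1.21 ± 0.19, adjusted p = 7.55e-06) and Slc7a1 (0.52 ± 0.19, adjusted p = 0.0197). The Slc7a1 call was lost without YAP5SA replicate 1 or YAP-TFE3 replicate 1 (adjusted p up to 0.0629). The other 4 transporters were lower. With library totals alone, 16 members were lower and 5 higher, the median of all genes was 0.41, and 67.6% in place of 51.4% of all called genes were higher.

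YAP-TFE3 also differed from full-length TFE3, with 14 members higher and 2 lower, beside 14.3% and 8.62% of all genes. The rises were led by Cth (4.003 ± 0.70, adjusted p = 0.000176), Chac1 (2.21 ± 0.21, adjusted p = 1.48e-07) and Trib3 (1.95 ± 0.34, adjusted p = 0.000195). The falls were Shmt1 (-1.77 ± 0.18, adjusted p = 2.77e-07) and Gcat (-1.03 ± 0.16, adjusted p = 4.31e-05). Without YAP-TFE3 replicate 1, 8 members were higher and 2 lower.

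In YAP5SA against TAZ4SA, 11 members were higher and 8 lower, beside 19.6% and 22.8% of all genes. The rises were led by Stc2 (1.98 ± 0.25, adjusted p = 4.6e-06), Phgdh (1.10 ± 0.19, adjusted p = 0.000103) and Slc7a11, given above. The falls were led by Slc7a3 (-1.33 ± 0.50, adjusted p = 0.0381), Trib3 (-1.17 ± 0.32, adjusted p = 0.00584) and Slc1a4 (-1.16 ± 0.12, adjusted p = 4.19e-07), the Slc7a3 call being lost under 6 alternatives (adjusted p up to 0.266). Of the transporters, 5 of 9 were lower and 1 higher. The median over the members was 0.12 with TMM and -0.098 with library totals, under which 7 were higher and 10 lower, the median of all genes was -0.25 and 27.4% in place of 46.2% of all called genes were higher. Without TAZ4SA replicate 3, 14 were higher and 6 lower, and with these 2 groups alone in the fit 10 members were called.

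Other genes of the same pathways were taken as whole lists, and the genes named from them were chosen after their values were seen. Of 20 cytosolic aminoacyl-tRNA synthetases, which charge tRNAs with amino acids and include ATF4 targets, 19 were higher in TAZ4SA (median log2 fold change 0.61), 19 in YAP5SA (1.05), 17 in EVsub (0.51), 9 in TAZ-CAMTA1 (0.36) and none in YAP-TFE3 (-0.031), TFE3 (-0.063) or, against EVsub, CAMTA1 (-0.16), and none was lower in any of these. Of all genes, 31.1% were higher in TAZ4SA, 36.3% in YAP5SA, 12.5% in EVsub and 12.5% in TAZ-CAMTA1. In YAP-TFE3, TFE3 and, against EVsub, CAMTA1 the shares were 10.6%, 2.36% and 1.29%. At an unadjusted p under 0.05 there was 1 synthetase in each of YAP-TFE3, TFE3 and CAMTA1. By library totals the counts were 13 in TAZ4SA and 14 in YAP5SA. The EVsub count was 10 without EV replicate 1 and 9 without EVsub replicate 2, and the TAZ-CAMTA1 count was 5 without EV replicate 1. Kars rose by 1.90 and Gars by 1.79 in YAP5SA on the log2 scale. In YAP-TFE3 against YAP5SA, 19 of 20 were lower, beside 34.5% of all genes.

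Of 22 genes of the integrated stress and unfolded protein responses, 13 were higher and 3 lower in TAZ4SA, 9 and 7 in YAP5SA, 7 and 1 in TAZ-CAMTA1, 3 and 2 in YAP-TFE3 and 1 and 4 in EVsub. The YAP5SA counts are 40.9% and 31.8% of the list, beside 36.3% and 34.9% of all genes, and those in TAZ4SA 59.1% and 13.6%, beside 31.1% and 26.4%. In TAZ-CAMTA1 they were 31.8% and 4.55%, beside 12.5% and 8.98%. In YAP-TFE3 they were 13.6% and 9.09%, beside 10.6% and 4.74%, and in EVsub 4.55% and 18.2%, beside 12.5% and 9.59%. The stress cytokine gene Gdf15 rose by 6.62 on the log2 scale in TAZ4SA, 6.66 in YAP5SA and 4.77 in TAZ-CAMTA1. The transcription factor gene Atf3 rose by 2.76, 2.70 and 1.74, and Ppp1r15a, whose product helps remove phosphate from eIF2, by 2.18, 2.12 and 0.64. Atf5 had -1.03 in TAZ4SA and -1.84 in YAP5SA. In EVsub, where Asns, Psat1 and Trib3 were higher, Atf3 had -0.76. In YAP-TFE3, 3 of these genes were called in all without EV replicate 1, and 2 without EV replicate 3 or YAP-TFE3 replicate 1. With library totals alone the YAP5SA split was 7 higher and 9 lower, and its median turned from 0.19 to -0.19.

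Of 25 other one-carbon and amino acid enzymes measured, 13 were higher and 4 lower in TAZ4SA, 14 and 4 in YAP5SA, 5 and 2 in TAZ-CAMTA1, 2 and 1 in YAP-TFE3 and 8 and 0 in EVsub. Those higher were 52.0% of the list in TAZ4SA and 56.0% in YAP5SA, beside 31.1% and 36.3% of all genes. Of all genes, 26.4% were lower in TAZ4SA and 34.9% in YAP5SA. The shares of all genes higher and lower were 12.5% and 8.98% in TAZ-CAMTA1, 10.6% and 4.74% in YAP-TFE3 and 12.5% and 9.59% in EVsub. Ass1, argininosuccinate synthetase, rose by 2.06 in TAZ4SA and 2.87 in YAP5SA, while Mat2a, which makes S-adenosylmethionine, had -0.82 and -2.13. Mthfd1l, the mitochondrial formyl-tetrahydrofolate synthetase, rose by 1.09, 1.55 and 1.48 in TAZ4SA, YAP5SA and EVsub. In TAZ-CAMTA1 the 7 calls became 2 without EV replicate 1, 4 without EV replicate 3 and 3 without TAZ-CAMTA1 replicate 2 or 3, and in YAP-TFE3 the 3 calls became 1 without EV replicate 2 or YAP-TFE3 replicate 1. By library totals the split was 8 and 4 in TAZ4SA and 10 and 8 in YAP5SA. Of 20 other amino acid transporters measured, 6 were higher and 6 lower in TAZ4SA, 7 and 7 in YAP5SA (4 and 10 with library totals), 6 and 5 in TAZ-CAMTA1, 3 and 2 in YAP-TFE3 and 3 and 3 in EVsub. The YAP5SA counts are 35.0% and 35.0% of the list, near the shares of all genes (36.3% and 34.9%), which in TAZ4SA were 31.1% and 26.4%. Beside the other counts stand 12.5% and 8.98% of all genes in TAZ-CAMTA1, 10.6% and 4.74% in YAP-TFE3 and 12.5% and 9.59% in EVsub. In TAZ-CAMTA1 the 11 calls of these transporters became 7 without EV replicate 1 or TAZ-CAMTA1 replicate 2 or 3. In YAP-TFE3 their 5 calls became 2 without EV replicate 1 or YAP-TFE3 replicate 1, and 3 without EV replicate 3 or YAP-TFE3 replicate 2. Slc6a15, a carrier of branched-chain amino acids and proline, rose by 1.39, 2.08, 2.29, 1.66 and 2.03 in TAZ-CAMTA1, TAZ4SA, YAP-TFE3, YAP5SA and EVsub.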

How the data were processed

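The 24 NIH 3T3 libraries came from stranded polyA RNA. The authors deposited raw counts, whole numbers per Ensembl gene. Their methods describe alignment to mm10 with Hisat2 and, beside it, Salmon estimates summed to genes with tximport; which route gave the deposited counts, and whether strand was used, is not given in the sources used here. Of 39017 identifiers, 37693 matched GENCODE M21. Groups and replicate numbers came from titles (for YAP-TFE3 replicate 3 the description gives another number). The 14361 genes whose mean was 5 counts or more were tested in 1 fit of all libraries by edgeR 4.0.16 in R 4.3.3 (quasi-likelihood test, two-sided, TMM, Benjamini-Hochberg), tested on simulated data. Members, lists and comparisons were chosen with earlier results of these data known. Library values are given for Atf4, Asns, Ddit3, Trib3, Chac1, Phgdh, Psat1, Slc7a11 and the 3 largest called rises and falls per comparison with empty vector; further members with library values were chosen after their values were seen. Replicates differed by more than counting noise (chi-square per degree of freedom 5.59 or more). Alternatives were DESeq2 1.42.0, DESeq2 size factors, library totals, no count filter, at least 10 counts in every library, a replicate block, only the 2 groups compared, and each library left out; EVsub as control for TAZ-CAMTA1 was added after seeing the data.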

Additional observations from a re-analysis of the deposited data

Results flagged for a closer look

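Members called in opposite directions against EV in a pair of groups, and called in the direct test between them, were looked at again. Shmt1 was lower in YAP-TFE3 and higher in YAP5SA than in EV, and the direct log2 difference between YAP-TFE3 and YAP5SA was -1.55 by edgeR's test. Slc1a5 was higher in YAP-TFE3 and lower in YAP5SA, with a direct difference of 1.21. Shmt1 was also lower in YAP-TFE3 and higher in full-length TFE3, with a direct difference of -1.77. Each pair shares the EV libraries. The direct tests do not compare with the EV level, but EV is in the fit that estimates their spread.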

How the results depend on the processing

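Of 182 member calls over all comparisons, 127 held under every alternative in which they were tested, 55 were lost under at least 1 and 0 reversed. With at least 10 counts in every library, 173 calls were tested and 9 were not (those of Cth and Slc7a3). Library totals in place of TMM lost 27, the fit of only the 2 groups 23, the stricter count filter 10, DESeq2 size factors 6, no filter 4 and DESeq2 1. Over all fits with 1 library left out, a call was lost 136 times and held 956 times. In TFE3 against EV, 1 call became 2 without a filter, 5 with only the 2 groups in the fit and 3 with DESeq2, and 1 to 2 with a library left out (2 without EV replicate 1). In YAP5SA against TAZ4SA, 19 calls became 10 with only the 2 groups. With a library left out, YAP-TFE3 had 4 to 12 calls against EV and 10 to 15 against TFE3. The median of the members in YAP5SA against EV moved from 1.17 to 1.07 under the stricter filter and 0.80 with library totals. Library totals also moved it to -0.094 in TAZ-CAMTA1 against TAZ4SA, -0.41 in YAP-TFE3 against YAP5SA and -0.098 in YAP5SA against TAZ4SA, where it reversed. With a library left out the medians ranged from 0.45 to 0.72 (TAZ-CAMTA1), 0.80 to 1.31 (TAZ4SA), 0.062 to 0.43 (YAP-TFE3), 1.11 to 1.31 (YAP5SA) and -0.32 to -0.073 (TFE3) against EV, 0.40 to 0.54 (EVsub), -0.30 to 0.008 (CAMTA1 against EVsub), -0.41 to -0.15 (TAZ-CAMTA1 against TAZ4SA, -0.41 without TAZ4SA replicate 1, -0.17 without replicate 2 and -0.15 without replicate 3), 0.35 to 0.53 (YAP-TFE3 against TFE3), -0.90 to -0.65 (YAP-TFE3 against YAP5SA) and -0.081 to 0.35 (YAP5SA against TAZ4SA). With EVsub as control, added after seeing the data, TAZ-CAMTA1 had 7 calls in place of 19 and a median of -0.003. The cause of these shifts was not tested.

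The replicate block lost 5 calls and gave 17 in TAZ-CAMTA1 against EV, 17 in TAZ-CAMTA1 against TAZ4SA and 18 in YAP5SA against TAZ4SA, and the main count elsewhere. In no comparison did every same-numbered pair correlate over 0.1, so the numbers were not taken as pairs in the main fit. In CAMTA1 against EVsub the correlations were 0.25, -0.002 and 0.41, so this rule does not show that pairing is absent there. With 3 libraries a group and few counts for Slc7a3 and Cth, small differences in these genes may not be detectable.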
